A study of Arabidopsis thaliana with 22 samples.

Results

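LBD37 (AT5G67420), LBD38 (AT3G49940), LBD39 (AT4G37540), BT1 (AT5G63160) and BT2 (AT3G48360) are 5 Arabidopsis thaliana genes known as repressors in nitrogen signalling. They were chosen as named loci, and each had 1 transcript model among the 31524 models (27143 loci) of the value table, so 5 of 27143 loci are described here. No filter on low values was set, and all 5 entered every test.

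LBD37, LBD38 and LBD39 are transcription factors of the plant-specific LOB domain family, class II. In Arabidopsis, their transcripts are known to accumulate when nitrate is supplied, and the proteins repress anthocyanin genes and nitrate uptake and reduction genes, so that they act as a brake on the response that induces them. BT1 and BT2 are adaptor proteins with a BTB domain, which binds CUL3 ubiquitin ligases, and a TAZ domain. They are known as nitrate-inducible genes too, and they lower the expression of the high-affinity nitrate transporters NRT2.1 and NRT2.4 in roots with little nitrate.

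The data come from 22 arrays with a single dye, hybridised with RNA of root cells that were sorted by fluorescence from seedlings of the mutant atscl26 and of Col0, all of which carried a GFP reporter of either epidermis or cortex. The 8 groups are atscl26 epidermis KNO3 (n = 3), atscl26 epidermis KCl (n = 2), Col0 epidermis KNO3 (n = 3), Col0 epidermis KCl (n = 3), atscl26 cortex KNO3 (n = 3), atscl26 cortex KCl (n = 3), Col0 cortex KNO3 (n = 2) and Col0 cortex KCl (n = 3). The name atscl26 refers to SCL26, a transcription factor of the GRAS family. The second deposited table calls the allele atscl26-2, and neither the kind of mutation nor the promoters of the reporters are given in the sources used here. All seedlings had grown on 0.1 mM KNO3 for 9 days before a treatment of 2 h with 5 mM KNO3 or its control. The sample titles call the control KCl, and the source names give it as 5 mM KCl at 12 days of age, whereas the protocol describes fresh plates with 0.1 mM KNO3. The difference between these descriptions cannot be settled here, and the control is called KCl.

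Values are on a log2 scale and were made with RMA, which corrects the background, normalises the arrays and summarises the probes of a model as 1 value per array. The median of an array ranged from 8.78 to 9.04. Correlation over all models set 4 arrays apart, replicate 3 of Col0 epidermis KNO3, replicate 2 of Col0 epidermis KCl, replicate 1 of atscl26 cortex KNO3 and replicate 1 of Col0 cortex KNO3. Their median correlation with the rest ran from 0.562, in the Col0 epidermis KCl array, to 0.80, while 18 arrays had 0.852 to 0.921. A score set markers of non-hair cells (4) and root hairs (9) against 3 of cortex, and 8 arrays scored closer to the cell type they were not labelled with. They were replicates 2 and 3 of atscl26 epidermis KNO3, replicates 1 and 2 of Col0 epidermis KCl, replicates 2 and 3 of atscl26 cortex KNO3, replicate 3 of atscl26 cortex KCl and replicate 1 of Col0 cortex KNO3. WER, 1 of the 4 non-hair markers, spanned 7.73 to 13.51 in arrays labelled epidermis and 7.24 to 13.24 in those labelled cortex. AT4G08250, taken as the SCL26 locus from general knowledge because the reference table does not pair it with that name, did not separate the genotypes, with 7.66 to 9.11 in arrays labelled atscl26 and 7.0 to 11.26 in those labelled Col0. The authors' deposited table of group averages holds 1 array with another group's label in 2 of its 8 columns, as given at the end. Genotypes and cell types are therefore given as labelled. Values without them are given beside the main differences, where "correlated arrays" are the 18 and "concordant arrays" the 14 left without the 8. Concordant arrays leave 1 array in 4 of the groups, whose spread is then taken from the other groups. That of atscl26 cortex KNO3 is replicate 1, which is also 1 of the 4 arrays of low correlation.

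None of the 5 genes changed past the threshold, a limma p adjusted by Benjamini-Hochberg under 0.05, in any of the 17 comparisons tested. The background was as low: 0 of 31524 models (0%) passed in 16 comparisons, and 1 (0.00317%) passed in the average difference between epidermis and cortex. At an unadjusted limma p under 0.05, between 0 and 2 of the 5 genes were reached per comparison. What follows gives the levels, the differences and their errors. In RNA of sorted cells, fewer cells of a type and less RNA per cell cannot be told apart.

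LBD37 kept to the narrowest range of the 5 genes. Its level spanned 11.89 to 13.36 over the 22 arrays (median 12.74), and it was above the array median in all of them. The SD of LBD37 within groups was 0.314 log2 units, whereas that of LBD38, LBD39, BT1 and BT2 lay between 0.996 and 1.17. The median over all models was 0.870, and 4.29% of models had a smaller SD than LBD37. Among the 2086 models within 0.5 log2 units of its median level, 2.11% did. LBD38 spanned 8.16 to 12.47, LBD39 8.32 to 12.44, BT1 7.31 to 11.10 and BT2 7.96 to 12.37. BT1 lay below the array median in 16 of 22 arrays, against 1 for LBD38, 3 for LBD39 and 2 for BT2. A value reads the brightness of a gene's own probes, so the genes cannot be ranked against each other by it.

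With the 8 groups set in order of their mean, neighbouring groups overlapped for nearly every step. For LBD38, LBD39, BT1 and BT2 the array values of neighbours overlapped in 7 of 7 steps. For LBD37 they overlapped in 6 of 7. Its order ran through Col0 cortex KNO3 (13.13 ± 0.32, SD, n = 2), atscl26 cortex KCl (13.10 ± 0.12, n = 3), Col0 cortex KCl (12.94 ± 0.23, n = 3), atscl26 epidermis KNO3 (12.82 ± 0.30, n = 3), Col0 epidermis KCl (12.80 ± 0.52, n = 3), atscl26 epidermis KCl (12.80 ± 0.54, n = 2) and Col0 epidermis KNO3 (12.71 ± 0.03, n = 3). After a gap of 0.53 came atscl26 cortex KNO3 (12.18 ± 0.26, n = 3), the 1 group that stood apart from its neighbour.

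The order of the groups differed between the genes. LBD38 was highest in atscl26 epidermis KCl (12.0 ± 0.66, SD, n = 2), followed by Col0 epidermis KNO3 (11.59 ± 0.11), atscl26 epidermis KNO3 (11.58 ± 0.46), Col0 cortex KCl (11.34 ± 1.01), atscl26 cortex KNO3 (11.17 ± 0.94), atscl26 cortex KCl (10.89 ± 0.25), Col0 cortex KNO3 (10.63 ± 1.31) and Col0 epidermis KCl (10.24 ± 1.92). LBD39 was highest in Col0 epidermis KCl (11.65 ± 0.20, SD, n = 3), where LBD38 was lowest, then in Col0 cortex KCl (11.42 ± 1.03), atscl26 cortex KCl (10.78 ± 0.35), Col0 cortex KNO3 (10.62 ± 0.20), atscl26 epidermis KNO3 (10.52 ± 1.75), atscl26 epidermis KCl (9.64 ± 0.92), Col0 epidermis KNO3 (9.56 ± 1.14) and atscl26 cortex KNO3 (9.52 ± 1.1). For LBD39 the 3 highest groups are KCl groups.

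BT1 was highest in Col0 epidermis KCl too (9.80 ± 1.85, SD, n = 3), then in Col0 cortex KNO3 (9.02 ± 1.08), atscl26 epidermis KNO3 (9.01 ± 1.92), atscl26 cortex KCl (8.68 ± 0.96), atscl26 cortex KNO3 (8.44 ± 0.70), Col0 cortex KCl (8.08 ± 0.32), Col0 epidermis KNO3 (7.97 ± 0.50) and atscl26 epidermis KCl (7.61 ± 0.37). Its 3 highest means have SDs above 1 log2 unit. BT2 lay close together in 5 groups: Col0 cortex KNO3 (11.47 ± 0.35, SD, n = 2), Col0 cortex KCl (11.35 ± 0.76), atscl26 epidermis KNO3 (11.32 ± 0.99), Col0 epidermis KCl (11.26 ± 0.52) and atscl26 epidermis KCl (11.11 ± 0.26). Below them came atscl26 cortex KCl (10.57 ± 2.31), Col0 epidermis KNO3 (9.79 ± 1.19) and atscl26 cortex KNO3 (9.15 ± 0.58).

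**Figure D1:**
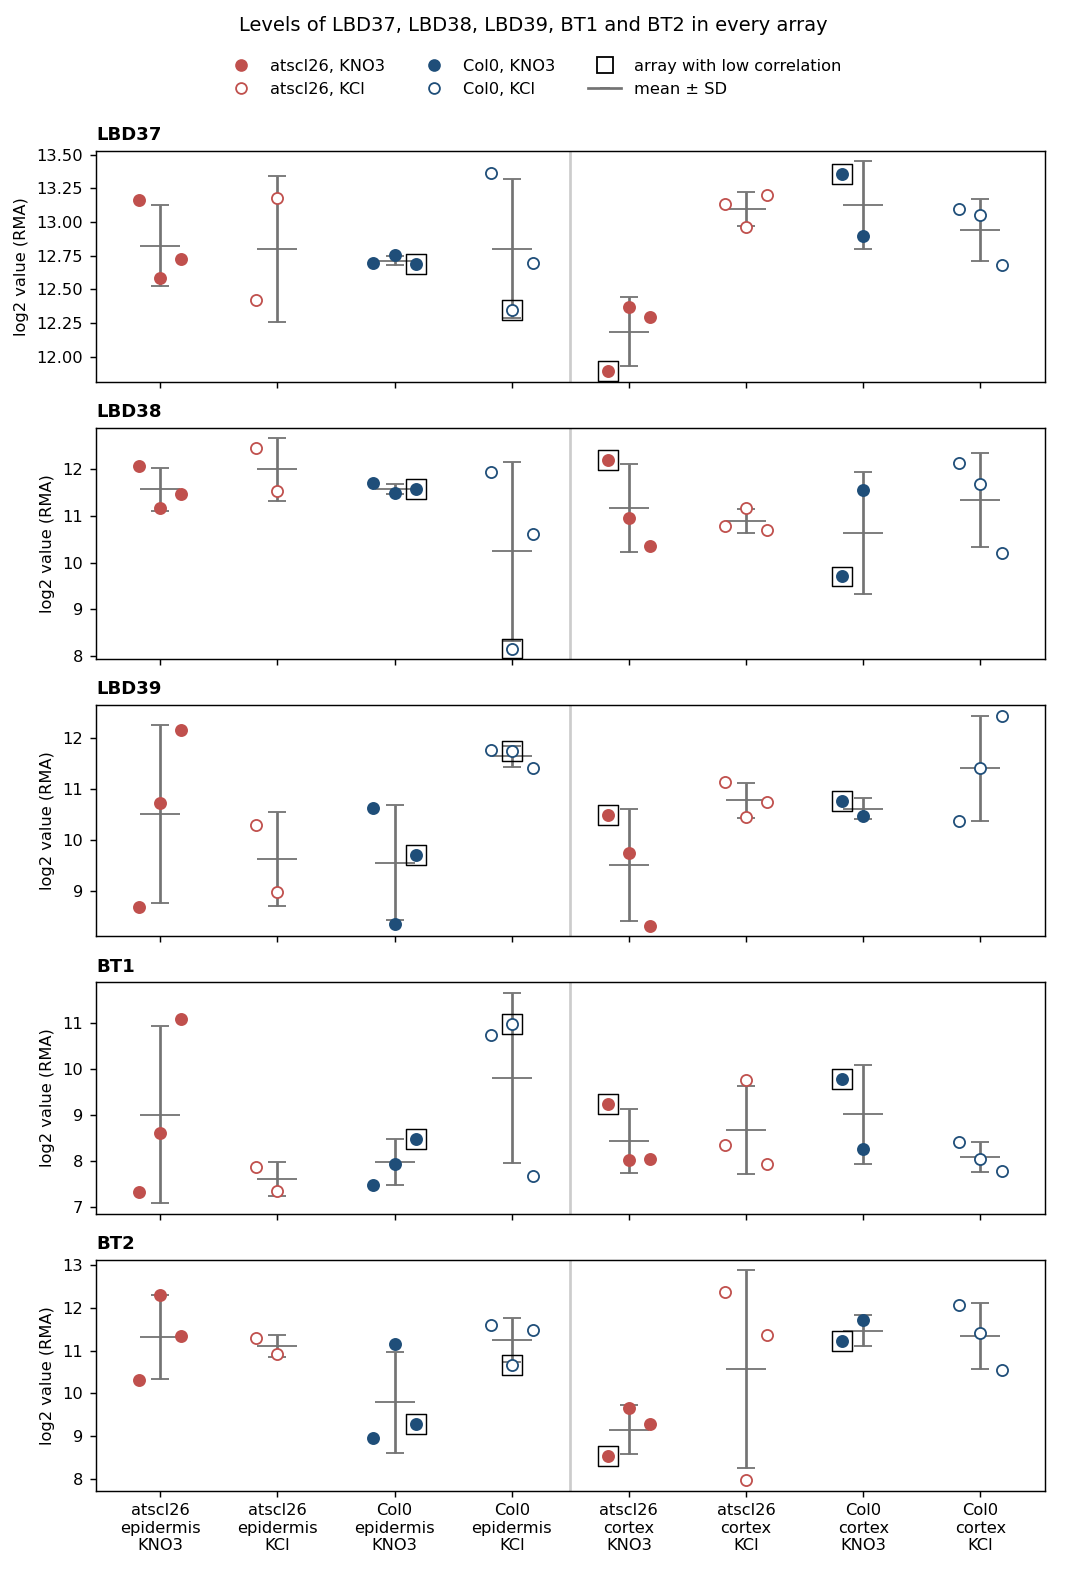
Log2 value (RMA) of each gene in every array, by group, with genotype in colour, KNO3 as filled and KCl as open circles, horizontal lines for group means, bars for the SD, and squares around the 4 arrays with low correlation to the rest. LBD37 stays between 11.89 and 13.36 on its narrower axis, while the other 4 genes spread over 3.79 to 4.41 log2 units.

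The nitrate comparison asked whether these genes, described as nitrate-inducible in whole roots, differed after 2 h of KNO3 in each sorted cell type and genotype. No gene was higher past the threshold in any of the 4 groups of cells, and the largest differences were negative. In Col0 epidermis, LBD39, BT1 and BT2 were lower and LBD38 higher after KNO3. In atscl26 cortex, LBD37, LBD39 and BT2 were lower. Of the 5 genes, 1 had an unadjusted limma p under 0.05 in Col0 epidermis, beside 5.43% of all models. The count was 0 in Col0 cortex (5.08% of all models), 0 in atscl26 epidermis (3.24%) and 1 in atscl26 cortex (2.72%).

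Among the LOB domain factors, LBD39 had the largest nitrate difference. In Col0 epidermis its level was 10.62, 8.36 and 9.70 in the KNO3 arrays, against 11.77, 11.75 and 11.41 in the KCl arrays. All KNO3 arrays lay below all KCl arrays, as 2.23% of all models did in this direction. The difference, KNO3 minus KCl, was -2.08 ± 0.79 (SE) on the log2 scale, with an unadjusted p of 0.0165 and an adjusted p of 0.909 in limma. It was -2.10 ± 1.04 in correlated arrays and -1.85 ± 1.00 in concordant arrays. Leaving out 1 array at a time kept it between -2.61 and -1.48. The mean of the 3 cortex markers was 7.96, 7.60 and 9.21 in the KNO3 arrays, against 11.70, 11.25 and 8.82 in the KCl arrays. The KCl array with markers at 8.82, below the KNO3 array at 9.21, had LBD39 at 11.41. The part of the markers in the LBD39 difference was not tested, and the concordant value rests on 1 KCl array. Elsewhere LBD39 differed by 0.88 ± 0.88 in atscl26 epidermis (-0.96 ± 1.06 in concordant arrays), -1.27 ± 0.79 in atscl26 cortex (-1.75 ± 0.95 in correlated and -0.32 ± 1.06 in concordant arrays) and -0.79 ± 0.88 in Col0 cortex. In atscl26 cortex its level was 10.49, 9.74 and 8.32 in the KNO3 arrays, against 11.15, 10.46 and 10.74 in the KCl arrays, and the highest KNO3 array just passed the lowest KCl array. Its average over the 4 groups of cells was -0.81 ± 0.42, with a 95% interval from -1.69 to 0.06 and a limma adjusted p of 1.00. On this average 0 of 5 genes had an unadjusted p under 0.05, beside 2.33% of all models.

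LBD37 showed its 1 nitrate difference beyond the spread of the arrays in atscl26 cortex. Its level was 11.89, 12.37 and 12.29 in the KNO3 arrays, against 13.13, 12.96 and 13.20 in the KCl arrays. The groups did not overlap, as for 5.17% of all models in this direction. The difference was -0.91 ± 0.36, with an unadjusted p of 0.0193 and an adjusted p of 1.00 in limma. It was -0.77 ± 0.30 in correlated arrays and -1.15 ± 0.46 in concordant arrays, where atscl26 cortex KNO3 holds only replicate 1, of low correlation. With array weights in limma, which give less weight to arrays that vary more, it was -0.82 ± 0.20 and passed the threshold (adjusted p = 0.0380). Under that setting 963 of all models passed too, and the estimation of the weights stopped before it had converged. The KCl side leaned on replicate 1, with a weight of 8.71, against 0.548 for replicate 2 and 1.42 for replicate 3. The non-hair epidermis markers had a mean of 10.10, 10.65 and 10.73 in the KNO3 arrays, against 7.59, 8.41 and 10.96 in the KCl arrays. The KCl array with the highest mean, 10.96, also had the highest LBD37 of the KCl arrays, 13.20. Of these 4 markers, 3 were higher after KNO3 (median 1.38, none past the threshold). Their part in the differences of LBD37 and BT2 was not tested. In the other cells LBD37 differed by at most 0.19 in size: 0.02 ± 0.40 in atscl26 epidermis, -0.09 ± 0.36 in Col0 epidermis and 0.19 ± 0.40 in Col0 cortex. The 95% interval of the average nitrate difference, -0.20 ± 0.19, ran from -0.59 to 0.20.

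Over all arrays, LBD38 differed most in Col0 epidermis, where the value depended on which KCl arrays were kept. Its level was 11.70, 11.48 and 11.57 in the KNO3 arrays, against 11.95, 8.16 and 10.62 in the KCl arrays. The lowest value, 8.16, came from replicate 2, the array with the lowest correlation. The difference of 1.34 ± 0.77 (limma adjusted p = 0.923) became 0.30 without that array, and 0.31 ± 0.61 in correlated arrays. In concordant arrays, which keep the KCl array at 10.62 alone, it was 0.96 ± 0.72. The LBD38 difference was -0.42 ± 0.86 in atscl26 epidermis (0.08 ± 0.76 in concordant arrays). In atscl26 cortex it was 0.28 ± 0.77 (-0.23 ± 0.56 in correlated and 1.21 ± 0.76 in concordant arrays). In Col0 cortex it was -0.71 ± 0.86. It turned to 0.22 in correlated (SE 0.70) and concordant arrays (SE 0.72), which keep the same Col0 cortex arrays, with 1 KNO3 array left.

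Of the adaptor genes, BT1 varied most between arrays of a group. In Col0 epidermis its level was 7.49, 7.93 and 8.49 in the KNO3 arrays, against 10.75, 10.99 and 7.67 in the KCl arrays. Replicates 1 and 2 of KCl were high and the remaining KCl array lay among the KNO3 arrays, so the groups overlapped. The difference was -1.84 ± 0.89 (limma adjusted p = 0.909). It was -1.5 ± 1.1 in correlated arrays and turned to 0.30 ± 0.64 in concordant arrays, which leave out both high KCl arrays. The mean of the 7 endodermis markers moved with BT1, at 7.05, 8.21 and 7.85 in the KNO3 arrays, against 10.92, 8.85 and 6.91 in the KCl arrays. Their part in the difference was not tested. In atscl26 epidermis BT1 was 7.31, 8.61 and 11.10 in the KNO3 arrays, against 7.87 and 7.35 in the KCl arrays. Here the highest value belonged to a KNO3 array, and the difference was 1.40 ± 1.00. In concordant arrays it was -0.30 ± 0.68. It was -0.24 ± 0.89 in atscl26 cortex and 0.94 ± 1.00 in Col0 cortex, and the average over the 4 was 0.06 ± 0.47.

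BT2 was lower after KNO3 in Col0 epidermis and in atscl26 cortex, with overlap in both. In Col0 epidermis its level was 8.95, 11.15 and 9.29 in the KNO3 arrays, against 11.61, 10.66 and 11.50 in the KCl arrays. The difference was -1.46 ± 0.87 (limma adjusted p = 0.925), and -1.5 ± 1.17 in correlated and -1.70 ± 1.49 in concordant arrays. In atscl26 cortex BT2 was 8.53, 9.66 and 9.27 in the KNO3 arrays, against 12.37, 7.96 and 11.38 in the KCl arrays. The KCl array at 7.96 was the lowest of all 22. With it the difference was -1.42 ± 0.87, and without it -2.72. Without the KCl array at 12.37 it was -0.52, and neither passed the threshold. With array weights it was -2.54 ± 0.63 and passed (limma adjusted p = 0.0412), with the same reservations as for LBD37. The KCl array at 12.37 had a weight of 8.71 there, against 0.548 for that at 7.96 and 1.42 for that at 11.38. BT2 differed by 0.21 ± 0.97 in atscl26 epidermis and 0.13 ± 0.97 in Col0 cortex.

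**Figure D2:**
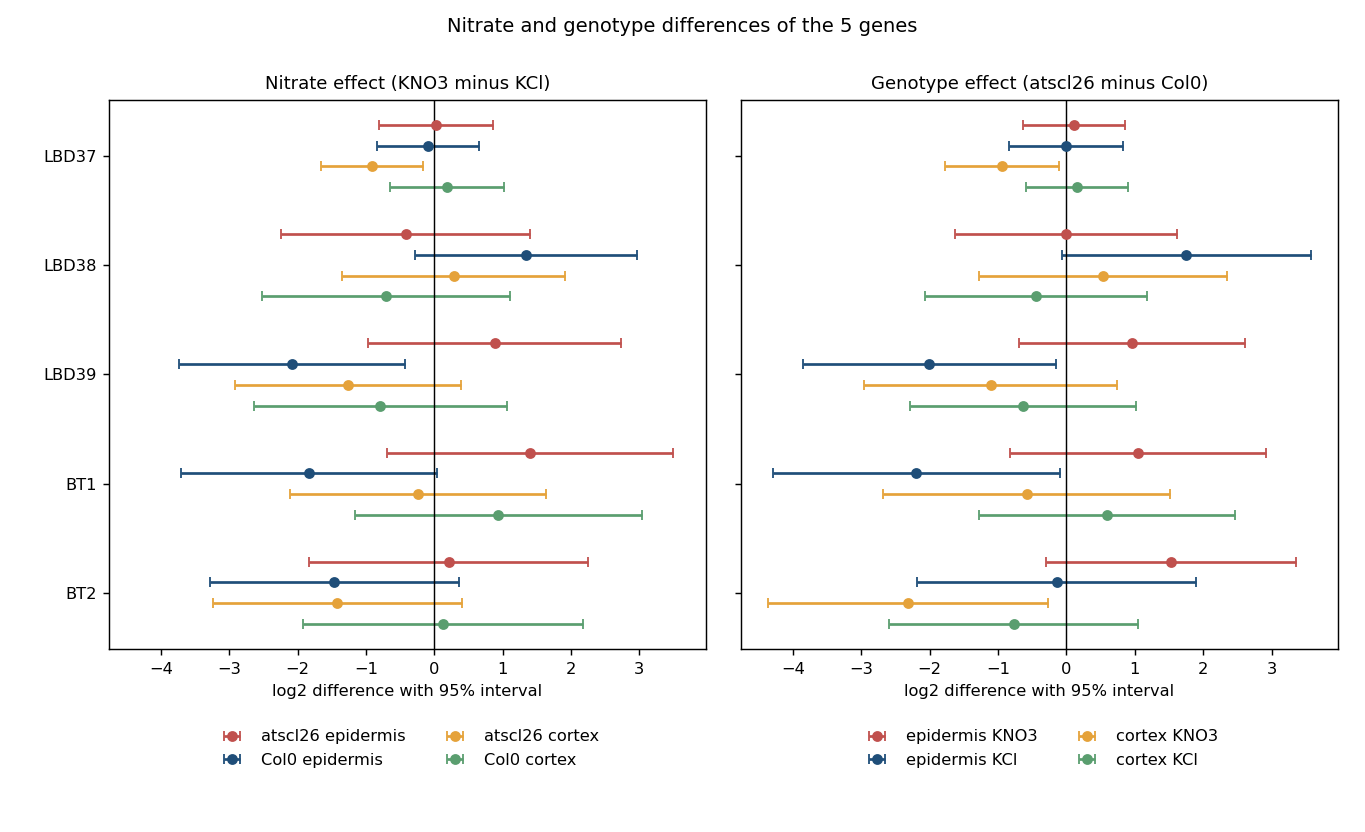
Log2 differences of the 5 genes with 95% intervals from limma, KNO3 minus KCl on the left by genotype and cell type, and atscl26 minus Col0 on the right by cell type and treatment; the vertical line marks no difference. The intervals of LBD37 are the narrowest, and the intervals that leave out 0 (LBD39 in Col0 epidermis and LBD37 in atscl26 cortex on the left, LBD39 and BT1 in epidermis KCl and LBD37 and BT2 in cortex KNO3 on the right) have adjusted p-values between 0.761 and 1.00.

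The genotype comparison asked whether atscl26 cells differed from Col0 cells in the same cell type and treatment. In cortex with KNO3, LBD37 and BT2 were lower in atscl26 without overlap between the groups, and in epidermis with KCl, LBD39 and BT1 were lower. None passed the threshold. The genes with an unadjusted limma p under 0.05 numbered 2 of 5 in epidermis KCl (4.51% of all models), 0 in epidermis KNO3 (5.18%), 2 in cortex KNO3 (6.15%) and 0 in cortex KCl (1.3%).

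In cortex with KNO3, LBD37 was 11.89, 12.37 and 12.29 in atscl26 arrays, against 13.36 and 12.90 in Col0 arrays. The difference, atscl26 minus Col0, was -0.94 ± 0.40, with an unadjusted p of 0.0291 and an adjusted p of 0.764 in limma. BT2 was 8.53, 9.66 and 9.27 in atscl26 arrays, against 11.22 and 11.72 in Col0 arrays. Every atscl26 array lay below both Col0 arrays for both genes, as 7.56% of all models did. The BT2 difference was -2.32 ± 0.97, with an unadjusted p of 0.0282 and an adjusted p of 0.761 in limma. The mean of the non-hair markers was 10.10, 10.65 and 10.73 in atscl26 arrays, against 8.94 and 7.79 in Col0 arrays. Of these 4 markers 3 were higher in atscl26 (median 2.4, 2 with an unadjusted limma p under 0.05, none past the threshold), and their part in both differences was not tested. In correlated arrays, with 1 Col0 array left, the differences were -0.57 ± 0.40 for LBD37 and -2.26 ± 1.43 for BT2. In concordant arrays 1 array was left on each side, that of atscl26 being of low correlation. There the differences were -1.01 ± 0.53 for LBD37 and -3.20 ± 1.82 for BT2. LBD38 (0.54 ± 0.86), LBD39 (-1.11 ± 0.88) and BT1 (-0.58 ± 1.00) overlapped between the genotypes in these cells, and LBD38 was -0.90 ± 0.75 in correlated arrays.

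In epidermis with KCl, LBD39 was 10.29 and 8.99 in atscl26 arrays, against 11.77, 11.75 and 11.41 in Col0 arrays, the same KCl arrays as in the nitrate comparison. The groups did not overlap, as for 4.8% of all models in this direction. The difference was -2.0 ± 0.88 (unadjusted p 0.0353, adjusted p 0.848 in limma), and -1.95 ± 1.04 in correlated and -1.77 ± 1.06 in concordant arrays. BT1 was 7.87 and 7.35 in atscl26 arrays, against 10.75, 10.99 and 7.67 in Col0 arrays. Its difference of -2.19 ± 1.00 (unadjusted p 0.0410, adjusted p 0.848 in limma) was -0.06 ± 0.68 in concordant arrays. LBD38 differed by 1.75 ± 0.86 with the low Col0 array and by 0.71 without it. In concordant arrays its difference was 1.38 ± 0.76.

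In epidermis with KNO3 the differences were 0.11 ± 0.36 for LBD37, -0.01 ± 0.77 for LBD38, 0.96 ± 0.79 for LBD39, 1.04 ± 0.89 for BT1 and 1.53 ± 0.87 for BT2. In concordant arrays, with 1 atscl26 array left, LBD39 turned to -0.88 ± 1.00 and BT1 to -0.65 ± 0.64, and BT2 was 0.52 ± 1.49. In cortex with KCl they lay between -0.77 ± 0.87 (BT2) and 0.60 ± 0.89 (BT1). Averaged over cell types and treatments, 0 of 5 genes had an unadjusted p under 0.05, beside 4.84% of all models. LBD39 differed most, by -0.70 ± 0.42, and LBD37 least, by -0.17 ± 0.19 with a 95% interval from -0.57 to 0.23.

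Whether nitrate acted differently in the 2 genotypes was tested as an interaction, the nitrate difference in atscl26 minus that in Col0. In epidermis it was 2.96 ± 1.18 for LBD39 and 3.23 ± 1.34 for BT1, the 2 of 5 genes with an unadjusted limma p under 0.05, beside 6.14% of all models. The adjusted p was 0.768 for both. BT2 had 1.67 ± 1.30, LBD37 0.11 ± 0.53 and LBD38 -1.76 ± 1.16. In correlated arrays the interaction of LBD39 was 2.98 ± 1.41 and that of BT1 2.90 ± 1.49. In concordant arrays, with 1 array left in both Col0 KCl and atscl26 KNO3, they were 0.89 ± 1.46 and -0.59 ± 0.93. By group means, the 7 endodermis and 3 cortex markers were all lower after KNO3 in Col0 epidermis and all higher in atscl26 epidermis, with none past the threshold. Single arrays overlapped, since the endodermis mean of Col0 epidermis KCl replicate 3 (6.91) lay below all 3 KNO3 arrays. Of the 6 models of stele markers, 3 were higher in atscl26 epidermis. Their part in these interactions was not tested. In cortex 0 of 5 genes had an unadjusted p under 0.05 (2.49% of all models), and the interaction of LBD37 was -1.10 ± 0.53 (limma adjusted p = 1.00).

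The cell type comparison set epidermis against cortex within a genotype and treatment. In atscl26 KNO3, BT2 was 10.32, 12.30 and 11.35 in epidermis arrays, against 8.53, 9.66 and 9.27 in cortex arrays. BT2 and LBD37 were higher in every epidermis array than in every cortex array, as 6.23% of all models were. The differences, epidermis minus cortex, were 2.17 ± 0.87 for BT2 (unadjusted p 0.0225, adjusted p 0.909 in limma) and 0.64 ± 0.36 for LBD37. BT2 was the 1 gene of 5 with an unadjusted p under 0.05 in atscl26 KNO3, beside 3.7% of all models. In concordant arrays 1 array was left on each side, that of cortex being of low correlation. There BT2 was 1.79 ± 1.82 and LBD37 1.27 ± 0.53. LBD39 turned to -1.81 ± 1.23 (1.00 ± 0.79 in all arrays) and BT1 to -1.94 ± 0.78 (0.57 ± 0.89). In Col0 KNO3 BT2 and LBD37 ran the other way without overlap, as for 8.58% of all models. BT2 differed there by -1.68 ± 0.97 and LBD37 by -0.41 ± 0.40. In atscl26 KCl, LBD38 was higher in epidermis without overlap (1.11 ± 0.86; 9.64% of all models), and LBD39 (-1.14 ± 0.88) and BT1 (-1.07 ± 1.00) were lower (11.4%). In Col0 KCl the largest difference was that of BT1, 1.72 ± 0.89, which rested on the 2 high epidermis arrays. It was 1.13 ± 1.00 in correlated and -0.42 ± 0.64 in concordant arrays. No gene had an unadjusted p under 0.05 in Col0 KCl (5.13% of all models), Col0 KNO3 (7.85%) or atscl26 KCl (3.41%). Averaged over genotypes and treatments, the 5 differences lay between -0.24 ± 0.42 (LBD39) and 0.34 ± 0.41 (LBD38), and 0 of 5 genes had an unadjusted p under 0.05, beside 6% of all models. In concordant arrays the average was -1.02 ± 0.33 for BT1 (limma adjusted p = 0.142) and -0.97 ± 0.52 for LBD39. Those arrays were picked by markers that tell the cell types apart.

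Across arrays, BT1 followed the markers of inner tissues. Its level and the mean of 7 endodermis markers (CASP1 to CASP5, proteins of the Casparian strip, and the regulators MYB36 and SCR) had a Pearson r of 0.874 and a Spearman rho of 0.861 over 22 arrays. The permutation p of both was 1e-05, the smallest that 100000 permutations can give, and 0.0003 after adjustment over 30 relations (5 genes by 6 marker lists). Without the 2 arrays farthest from the median of the markers, r was 0.908. It was 0.915 in the 18 correlated arrays, 0.894 within the 11 arrays labelled epidermis, 0.869 within the 11 labelled cortex, and 0.853 for deviations from the group means. The single markers had r between 0.405 (SCR) and 0.895 (CASP1). The 6 arrays with the highest BT1 are also the 6 with the highest marker mean. In order of falling BT1, they are atscl26 epidermis KNO3 replicate 3 (BT1 11.10, markers 9.67), Col0 epidermis KCl replicates 2 (10.99 and 8.85) and 1 (10.75 and 10.92), Col0 cortex KNO3 replicate 1 (9.78 and 10.31), atscl26 cortex KCl replicate 2 (9.76 and 8.52) and atscl26 cortex KNO3 replicate 1 (9.25 and 8.52). BT1 also followed the mean of 5 stele markers (r = 0.763, rho = 0.788, adjusted permutation p 0.0036 and 0.0006), although its r with single stele markers ran from -0.228 (AHK4) to 0.883 (SUC2). With the 3 cortex markers it had r = 0.654 and rho = 0.721 (adjusted permutation p 0.00592 and 0.0025), but 0.890 within arrays labelled epidermis and 0.092 within those labelled cortex. Endodermis and stele were not sorted for, and how far their RNA entered the samples was not tested.

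LBD39 followed the cortex markers, with r = 0.694 and rho = 0.662 (adjusted permutation p 0.0036 and 0.00825). Without the 2 arrays farthest from the median, r was 0.585. It was 0.678 in correlated arrays, 0.790 within arrays labelled epidermis, 0.535 within those labelled cortex, and 0.607 for deviations from the group means. The single markers C/VIF2, AT1G62510 and AT1G09750 had r of 0.688, 0.606 and 0.602. With the non-hair markers LBD39 had r = -0.565 and rho = -0.523 (adjusted permutation p 0.0416 and 0.0842). For LBD37, LBD38 and BT2, none of the 18 relations had an adjusted permutation p under 0.05.

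**Figure D3:**
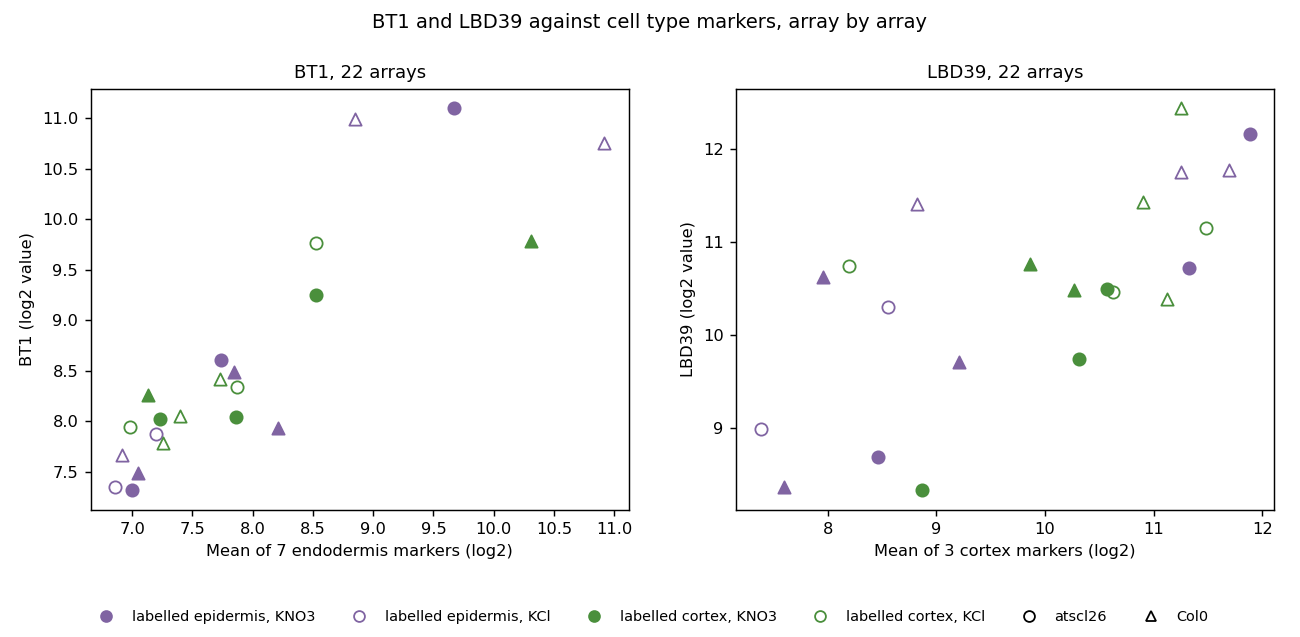
BT1 against the mean of 7 endodermis markers (left) and LBD39 against the mean of 3 cortex markers (right), all log2 values, 1 point per array, with cell type label in colour, KNO3 filled and KCl open, and atscl26 as circles and Col0 as triangles. BT1 and its markers are high in the same arrays (r = 0.874, n = 22), as do LBD39 and the cortex markers (r = 0.694, n = 22), in arrays of both labels.

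No pair of the 5 genes was shown to vary together after adjustment. Of the 10 pairs, none had an adjusted permutation p under 0.05 over the 22 arrays. LBD39 and BT1 had the highest correlation (r = 0.507, rho = 0.411, adjusted permutation p 0.152 and 0.268), followed by LBD37 and BT2 (r = 0.462, rho = 0.414, adjusted permutation p 0.152 and 0.268). BT1 and BT2, relatives in sequence, had r = 0.001, and LBD37 and LBD38 had r = 0.091.

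The transcript models of other loci with the highest Pearson r over the 22 arrays differed from gene to gene. The values are a description, picked as the highest of all models, and arrays of a group and arrays of poor quality are among the points. For BT1 they were AT3G56230 (0.928), IAMT1, a methyltransferase of auxin (0.921), and FLS3, of the flavonol synthase family (0.917), and these kept r of 0.888 to 0.916 in correlated arrays. For LBD39 they were NANA, an aspartic protease (0.857), CYP705A20, a cytochrome P450 (0.747), and AGP9, an arabinogalactan protein (0.738), with 0.789 to 0.858 in correlated arrays. For BT2 they were AT3G07510 (0.838), AT5G13400 (0.796) and AT2G35480 (0.792), with 0.737 to 0.825. LBD37 was nearest CYP705A25, a cytochrome P450 (0.808), BIL4, a membrane protein of brassinosteroid signalling (0.804), and AT1G76970 (0.784), which had 0.579 to 0.704 in correlated arrays. LBD38 was nearest AT5G03360 (0.859), APG8H, an autophagy protein (0.842), and AT2G45670 (0.839), which had 0.466 to 0.663, so the likeness of LBD38 leaned on the 4 arrays of low correlation.

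Relatives of the 5 genes gave no change past the threshold either. Of the class II relatives LBD40, LBD41 and LBD42, 0 of 3 passed in any nitrate comparison. LBD41, known for its induction in low oxygen, was lower after KNO3 in Col0 epidermis (7.08 in KNO3 and 9.72 in KCl, difference -2.64 ± 0.98, limma adjusted p = 0.909). Its groups did not overlap, as for 2.23% of all models in this direction. Of the KCl arrays, replicates 1 and 2 were not concordant, and replicate 2 was of low correlation. LBD40 differed by -0.31 ± 0.34 in these cells. Of BT3, BT4 and BT5, 0 of 3 passed. All 3 were higher after KNO3 in atscl26 epidermis, with BT3 at 7.91 in KNO3 and 6.42 in KCl (1.49 ± 0.74) and BT4 at 11.51 in KNO3 and 9.86 in KCl (1.66 ± 1.05, limma adjusted p 1.00 for both). BT4 was lower after KNO3 in atscl26 cortex (-1.84 ± 0.94). The ubiquitin ligase scaffolds that BT proteins bind, CUL3A and CUL3B, differed on average by 0.19 ± 0.29 and 0.28 ± 0.41 after KNO3.

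The genes around these repressors in the nitrate pathway were counted as lists. Among 9 models of 7 upstream regulators (the nitrate-responsive transcription factors NLP6 and NLP7, TGA1, TGA4, TCP20 and the kinases CIPK8 and CIPK23), 0 passed in any nitrate comparison. In Col0 epidermis 8 of 9 were higher after KNO3, with a median of 0.87 against -0.05 over all models. There TGA1 (1 of its 2 models) was 11.51 in KNO3 and 9.82 in KCl, and CIPK23, which phosphorylates the transporter NRT1.1, was 13.56 in KNO3 and 12.13 in KCl, with a limma adjusted p of 0.909 for both. In atscl26 cortex 0 of 9 were higher, and the median was -0.35 against 0.06. For 6 genes reported to be repressed downstream (the transporters NRT1.1, NRT2.1, NRT2.4 and NRT2.5 and the nitrate reductases NIA1 and NIA2), 1 of 6 was higher after KNO3 in Col0 epidermis and 0 of 6 in atscl26 epidermis, with 0 past the threshold. The medians were -0.52 in Col0 epidermis (-0.05 over all models) and -0.32 in atscl26 epidermis (-0.07). In cortex 3 of 6 were higher in both genotypes, with medians of 0.18 in Col0 (0.14 over all models) and -0.04 in atscl26 (0.06). NRT1.1 differed on average by -0.71 ± 0.47 and NIA2 by -0.34 ± 0.24. What the repressors contributed to these differences was not tested.

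For the 11 models of 10 genes of the anthocyanin pathway, which the LBD factors are known to repress, 0 passed in any nitrate comparison. LDOX, which makes anthocyanidins, was 7.83 in KNO3 and 6.58 in KCl in Col0 cortex (1.25 ± 0.48, limma adjusted p = 0.896), and PAP2, an activator, differed on average by 0.45 ± 0.28. In the average genotype comparison 0 of 11 were higher in atscl26, with a median of -0.24 against -0.05 over all models and 0 past the threshold. A check of the treatment used 11 models of 7 other genes known to rise early with nitrate, without the transporters and nitrate reductases above. Those left out were mostly lower after KNO3 in epidermis of both genotypes and evenly split in cortex, as given above. In atscl26 epidermis 11 of 11 were higher after KNO3 (median 0.73 against -0.07 over all models) and in Col0 epidermis 8 of 11 (0.66 against -0.05). In atscl26 cortex 0 of 11 were higher (median -1.25 against 0.06 over all models), and in Col0 cortex 0 of 11 (-1.80 against 0.14). None passed the threshold in any of these. RFNR2 (the third of its 3 models), a root ferredoxin reductase, was 12.63 in KNO3 and 11.28 in KCl in atscl26 epidermis (1.35 ± 0.94), and 9.57 in KNO3 and 12.36 in KCl in Col0 cortex (-2.79 ± 0.94, limma adjusted p = 0.896). The models of 1 list are not independent of each other and share the arrays of each comparison. The lists were counted over all 22 arrays only. Each KNO3 array of atscl26 cortex was of low correlation or not concordant, as was replicate 1 of Col0 cortex KNO3. In epidermis, replicates 1 and 2 of Col0 KCl and replicates 2 and 3 of atscl26 KNO3 were not concordant.

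The authors' deposited table of group averages does not hold the same arrays as the labels in 2 of its 8 columns. In the authors' deposited table, the Col0 epidermis KCl average is the mean of replicates 1 and 3 and of the array labelled atscl26 epidermis KNO3 replicate 1, without Col0 epidermis KCl replicate 2. Its Col0 cortex KNO3 average holds the array labelled atscl26 cortex KCl replicate 1 beside both Col0 arrays. The remaining 6 columns equal the means by label. Both of these atscl26 arrays thus also stay in the averages of their own labels, and each enters 2 columns. The largest deviation of any model from this make-up was 5e-09. The authors' deposited table gives Col0 epidermis KCl levels of 13.07 for LBD37, 11.55 for LBD38, 10.62 for LBD39, 8.58 for BT1 and 11.14 for BT2. Grouped by label, the means are 12.80, 10.24, 11.65, 9.80 and 11.26. The nitrate difference in Col0 epidermis from the authors' deposited table is -0.36 for LBD37, 0.04 for LBD38, -1.06 for LBD39, -0.61 for BT1 and -1.35 for BT2, against -0.09, 1.34, -2.08, -1.84 and -1.46 by label. LBD37, LBD38, LBD39 and BT1 thus move by over 1.5 times with the make-up of this group, and BT2 by less. For atscl26 against Col0 in epidermis KCl, the authors' deposited table gives -0.27 for LBD37, 0.45 for LBD38, -0.98 for LBD39, -0.97 for BT1 and -0.03 for BT2, against -0.00, 1.75, -2.0, -2.19 and -0.14 by label. For epidermis against cortex in Col0 KCl, the sign turns for LBD37, LBD38 and LBD39, which are 0.13, 0.21 and -0.79 from the authors' deposited table, against -0.14, -1.10 and 0.23 by label. BT1 is 0.49 there in the authors' deposited table, against 1.72 by label. The group enters 7 of the 17 comparisons, and in the epidermis interaction BT1 is 2.01 from the authors' deposited table, against 3.23 by label. No test can be made on averages, and which of the arrays belongs to the group cannot be settled here.

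**Figure D4:**
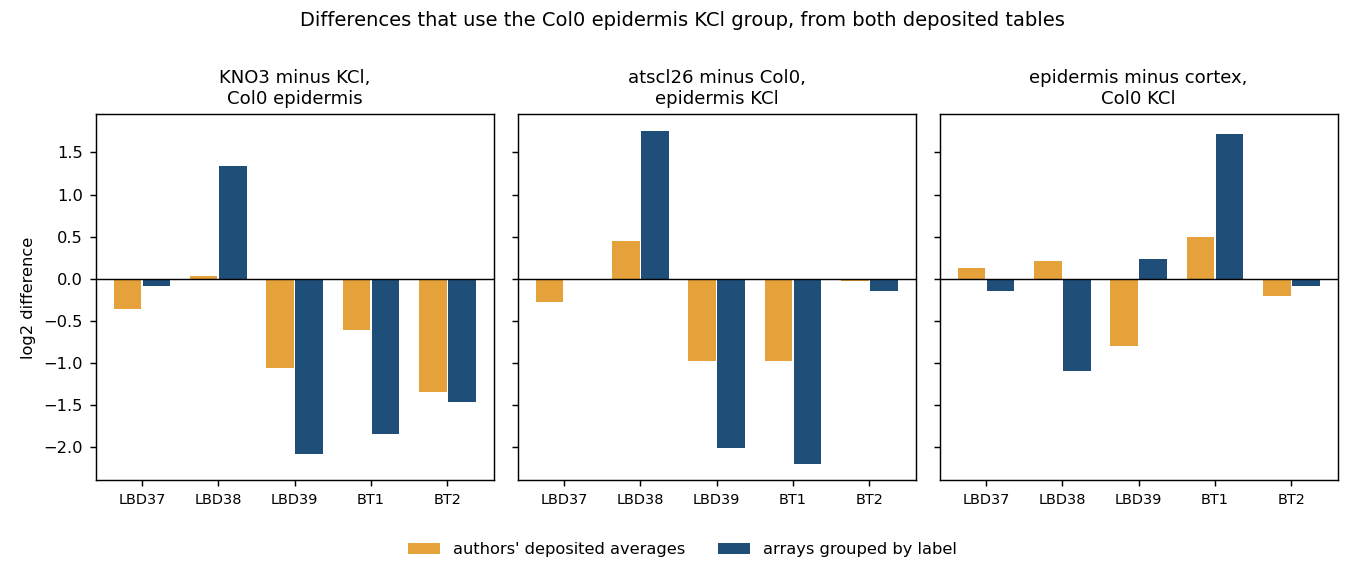
Log2 differences of the 5 genes in the 3 pairwise comparisons that use the Col0 epidermis KCl group, from the authors' deposited averages (orange) and from the arrays grouped by label (blue), with no error bars because the averages have none. In the nitrate panel LBD38 stands at 0.04 against 1.34 and LBD39 at -1.06 against -2.08, while BT2 stands at -1.35 against -1.46.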

How the data were processed

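Root cells of 22 samples were profiled on 1 NimbleGen array each. The deposited log2 values were made by the authors with RMA, per the submitters' processing notes, which name no settings or version. Per the series' design text, the submitters hybridised 24 arrays and dropped 2 for low quality once normalised. The second deposited table, of the authors' log2 averages, entered no test. Names came from RefSeq's TAIR10.1 table.

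The log2 values were fitted with limma 3.58.1 (R 4.3.3): 1 mean per group over all 22 arrays, 14 residual degrees of freedom (17.7 with the prior), eBayes, Benjamini-Hochberg over all 31524 models within each of 17 comparisons. The scripts were tested on simulated data. The labels call replicates biological; the number of arrays limits precision. The 5 genes, the 13 lists and the tests were chosen with earlier results of these data known. Named were the 5 genes, SCL26, the 3 nearest models of each gene, and up to 2 models per list with the smallest p in the average nitrate effect. Of 77 list entries, 7 were left out because the reference does not pair the name. Replicate numbers were not used as pairs (median correlation of same-numbered deviations -0.027 to 0.00), and the labels do not state shared handling. Marker relations used 100000 permutations (numpy 2.4.6). Alternatives were normalisation, filter, prior, weights, model choice, samples in the fit, replicate block, and arrays left out. Sequences are not shown, since none were in the sources used here.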

Additional observations from a re-analysis of the deposited data

How the results depend on the processing

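Over all alternatives 1535 values of the 5 genes were computed, of which 2 passed the threshold and 114 changed sign without having been called. Both passed with array weights, whose estimation stopped before convergence: in the nitrate comparison of atscl26 cortex 2 of the 5 genes passed, LBD37 and BT2. Counts of all models past the threshold, 0 as reported except for 1 in the average cell type difference, moved more. With array weights they were 519 (nitrate, Col0 epidermis), 963 (nitrate, atscl26 cortex), 167, 91 and 249 (genotype, epidermis KCl, epidermis KNO3 and cortex KCl), 3486 and 67 (cell type, Col0 KCl and atscl26 KNO3) and 90 (interaction, epidermis). Without the 4 arrays of low correlation they were 11 and 24 (nitrate, Col0 epidermis and cortex), 1, 14 and 37 (genotype, epidermis KCl, epidermis KNO3 and cortex KNO3), 1, 44 and 3 (cell type, Col0 KCl, Col0 KNO3 and atscl26 KNO3), 1, 3 and 25 (averages of nitrate, genotype and cell type) and 2 and 10 (interaction, epidermis and cortex). Without the 8 arrays with discordant markers they were 15, 3 and 472 (nitrate, Col0 epidermis, Col0 cortex and atscl26 cortex), 1 and 179 (genotype, epidermis KCl and cortex KNO3), 140, 73, 138 and 162 (cell type, Col0 KCl, Col0 KNO3, atscl26 KCl and atscl26 KNO3), 1049 (average cell type) and 9 (interaction, cortex). Quantile normalisation gave 1 for nitrate in Col0 epidermis, 1 for genotype in epidermis KCl, and 2 and 1 for cell type in Col0 KCl and KNO3. For genotype in epidermis KNO3, leaving out the dimmest models gave 1, and so did fitting the compared groups alone. An intensity trend with a robust prior gave 0 for the average cell type difference. The causes were not tested.

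Leaving out 1 array at a time called 0 of the 5 genes in each comparison. Counts of all models then ran from 0 to 5 for nitrate in Col0 epidermis, 884 in Col0 cortex, 21 in atscl26 epidermis, 1 in atscl26 cortex and 3 on average. For genotype they ran from 0 to 25 in epidermis KCl, 660 in cortex KNO3, 30 on average, and 1 in both epidermis KNO3 and cortex KCl. For cell type they ran from 0 to 30 in Col0 KCl, 827 in Col0 KNO3, 33 in atscl26 KCl and 3 on average, and for the interaction to 4 in epidermis and 138 in cortex. The counts of 884, 660, 827, 138 and the average genotype's 30 came without Col0 cortex KNO3 replicate 2, which leaves the array of low correlation alone in its group.

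The labels do not say whether same-numbered arrays were handled together, and their deviations had median correlations of -0.027 to 0.00. With the replicate number as a block, 0 of the 5 genes passed in any comparison, and LBD39 in Col0 epidermis had a nitrate difference of -2.08 (limma adjusted p = 0.940).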
